A study of Drosophila melanogaster with 6 samples.

Results

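Of the 2394 intervals listed for Drgx on the chromosome arms 2L, 2R, 3L, 3R, 4 and X, 240 (10.03%, Wilson 95% interval 8.89% to 11.3%) had their midpoint within 500 bp of an end of a protein-coding gene. These gene-end intervals are described here. They were chosen by position alone, from the deposited coordinates and the start and end of each gene in a RefSeq table of the Release 6 assembly. This rule was set with earlier results of these data known. The other 2154 intervals served for comparison: 1280 had their midpoint in the body of a coding gene, 72 in another kind of gene only, and 802 between genes.

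The intervals come from Targeted DamID of T4/T5 neurons, the motion-sensing neurons of the fly optic lobe, in Drosophila melanogaster larvae. In Targeted DamID the bacterial adenine methylase Dam, alone or fused to a DNA-binding protein, is made in trace amounts in a chosen cell type, and DNA around the GATC sites that it methylates is sequenced. The 3 Dam-Drgx samples carried UAS-Dam-DRGX and the 3 Dam-only samples carried UAS-Dam. Both groups also carried UAS-CD8-GFP, a membrane-bound green fluorescent protein, tubGal80ts, a temperature-sensitive repressor of Gal4, and the driver R23G12-Gal4. Animals were raised at 18 °C and third-instar larvae were held at 29 °C for 24 h before their whole brains were dissected, so the driver alone decides which cells of the brain were profiled. The assay reads DNA and holds no expression, so the labelled cell type could not be checked against marker genes. One list of intervals stands for all 6 samples and names none of them. It was taken to be the comparison of Dam-Drgx with Dam alone, which the list itself does not state. No value per sample accompanied it, so no difference below has a replicate error or a test, and the 95% intervals cover counting error only, with each genomic interval counted as a unit.

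Drgx belongs to the Paired-like homeodomain proteins, transcription factors that bind short DNA sequences with a TAAT core. Such factors can act at promoters, which lie at one end of a gene, and at enhancers, which may lie anywhere around it. Dam methylates DNA up to some distance from the bound protein, so an interval marks a neighbourhood rather than a site. The gene table gives no strand. Each gene therefore has a lower-coordinate and a higher-coordinate end, and which of them is the promoter was not told apart here. No genome or promoter sequence was used.

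The gene-end interval with the highest deposited score, 6.47, was also the highest of all 2394. It lay on 2L at 9578022 to 9578928, with its midpoint 355 bp inside CG31709. The score is the authors' own value for each interval, on an unstated scale, and serves here for descriptions and ranks within this list alone. The second, with a score of 5.42, covered the higher end of Cnx99A, which encodes calnexin, a chaperone of the endoplasmic reticulum, on 3R at 29319519 to 29320280. The third, with 5.24, lay on 2R at 23882874 to 23883296 across the gap between CG4882 and PHDP. PHDP encodes another Paired-like homeodomain protein, and its lower end was 51 bp from the midpoint. These 3 intervals ranked 1, 11 and 17 in the whole list.

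The next 12 gene-end intervals had scores from 4.44 to 4.97. They lay at CG44038, between KLHL18 and GCC185, at sip1, at CG4161, in CG16989 beside Rbf, at CG10195, at cni, at CG14454, between CG5498 and fbl, at CG16762, at Lztr1 and at zfh2. Rbf encodes a retinoblastoma family protein that restrains the cell cycle. Its interval scored 4.80, spanned 796394 to 797052 on X and lay wholly inside CG16989, 338 bp from the end of that gene and 367 bp from the lower end of Rbf, measured from the midpoint. The interval at zfh2, a gene for a zinc-finger homeodomain factor, had a score of 4.44 and lay on chromosome 4 at 501373 to 502661, with its midpoint 207 bp inside the gene. Gene-end intervals made up 11 of the 102 intervals ranked in the first 100 (ties kept), or 10.8% (Wilson 95% interval 6.13% to 18.3%). At the other end of the ranking, the 5 lowest scores were 1.47 at jigr1, 1.5 between Cirl and Vps25, 1.52 at Gli, 1.69 at CG34451 and 1.72 between MED7 and Cap-H2. Cirl encodes the adhesion receptor latrophilin, and Gli a septate junction protein.

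The position of the intervals around the ends was then described. The interval reached over an end coordinate of the gene in 214 of 240 cases (89.2%, Wilson 95% interval 84.6% to 92.5%). The remaining 26 lay beside the end, like those at Rbf and CG44038. The lower-coordinate end was nearest in 111 cases and the higher-coordinate end in 129 (53.8%, 47.4% to 59.9%). Midpoints were spread over the whole window, and no distance class held most of them: 47 lay within 100 bp of the nearest end, 58 at 101 to 200 bp, 47 at 201 to 300 bp, 39 at 301 to 400 bp and 49 at 401 to 500 bp.

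**Figure D1:**
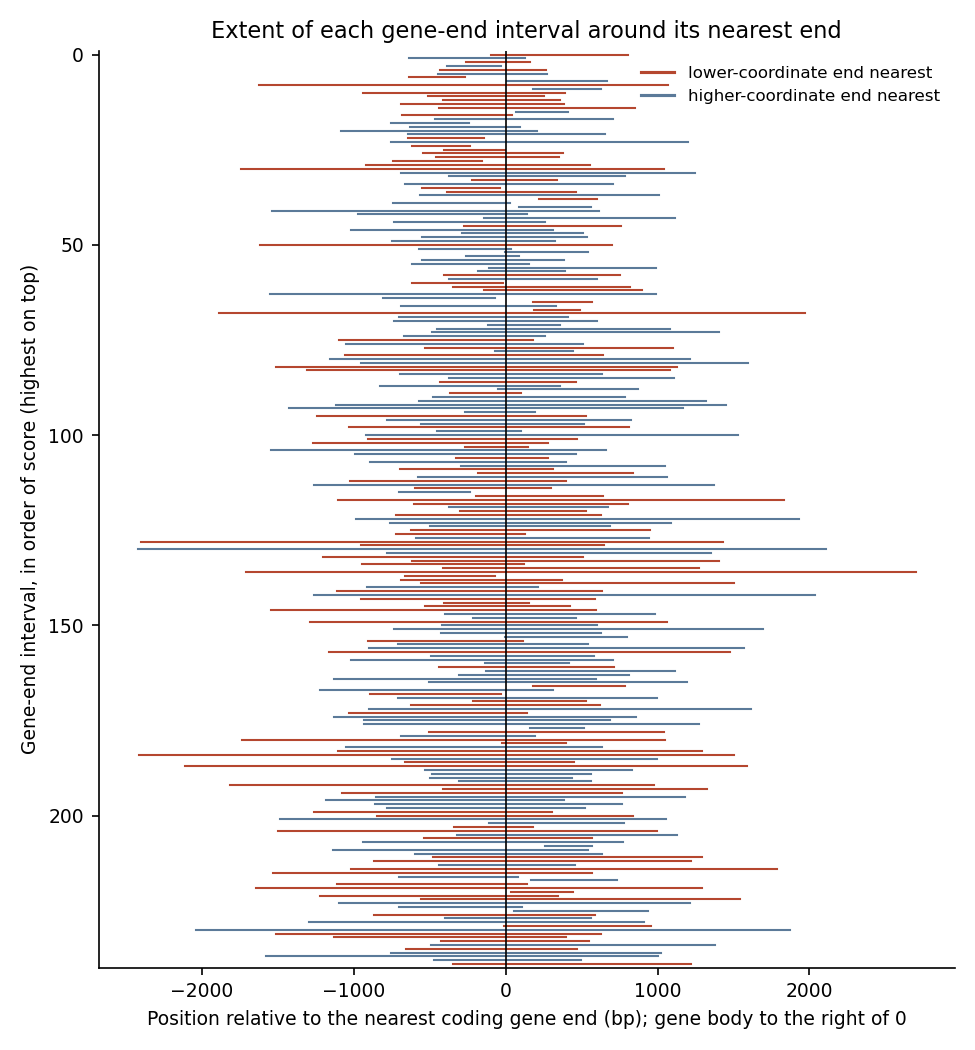
Each line is 1 of the 240 gene-end intervals, drawn from start to end relative to its nearest coding gene end (x axis in bp, gene body to the right of 0) and ordered by deposited score with the highest on top; colour gives which end is nearest. Most lines (214 of 240 intervals) cross an end of a gene within the window, as any line wider than 1 kb must. The widths run from 303 to 4537 bp.

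Midpoints outside every coding gene numbered 108 (45%, Wilson 95% interval 38.8% to 51.3%), and 132 (55%) lay inside one. Of all bases within 500 bp of a coding gene end, 28.6% were outside every coding gene and 71.4% were inside one. The members outside genes had a median score of 2.90 (95% interval of the median 2.63 to 3.10) and those inside genes 2.69 (2.43 to 2.84), and these intervals overlap. The median score was 2.77 (2.52 to 2.99) within 250 bp of an end and 2.65 (2.48 to 2.94) at 251 to 500 bp. Across the 240 intervals the Spearman correlation of score with distance to the end was -0.02.

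The density of midpoints was set against distance from a gene end, with the bases at each distance as the denominator. Outside coding genes it was 16.6 per Mb at 0 to 250 bp (95% interval 12.8 to 21.3), 22.4 at 251 to 500 bp, 26.3 at 501 to 1000 bp, 30.1 at 1001 to 2000 bp and 31.6 at 2001 to 5000 bp (28.1 to 35.5). Beyond 10000 bp it was 14.0 per Mb. Inside coding genes it was 8.78 per Mb at 0 to 250 bp (6.83 to 11.1), 9.65 at 251 to 500 bp, 9.16 at 501 to 1000 bp and 12.96 at 1001 to 2000 bp. There the highest value was 22.1 per Mb, at 5001 to 10000 bp (19.8 to 24.5). Up to 10000 bp, every distance class had more midpoints per Mb outside genes than inside. Over all arms the density was 17.9 per Mb. The number of GATC sites and the Dam-only signal at gene ends may vary with position and were not analysed here.

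**Figure D2:**
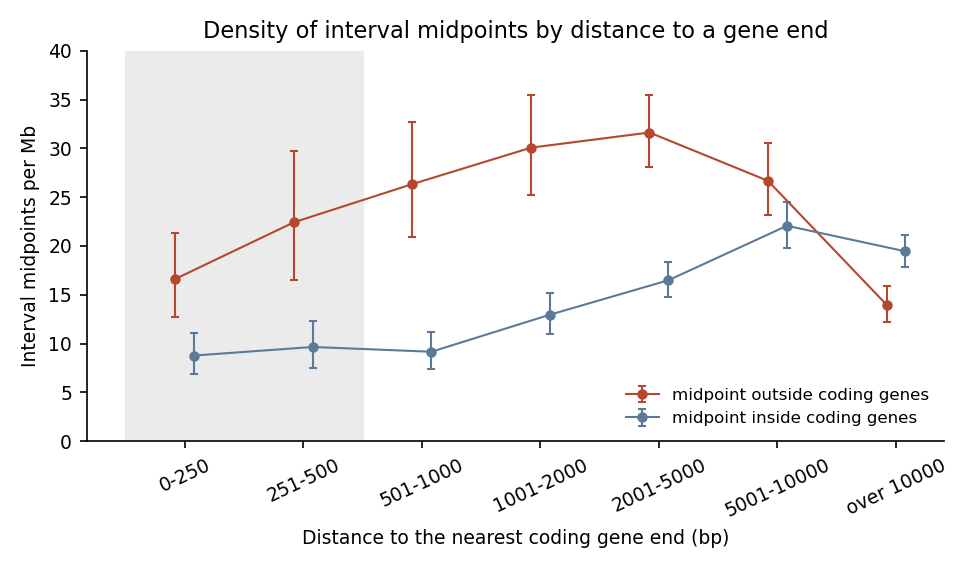
Interval midpoints per Mb (y axis) by distance of the midpoint to the nearest coding gene end in bp (x axis), for midpoints outside and inside coding genes; bars are exact binomial 95% intervals and the shaded classes hold the 240 gene-end intervals. The 0 to 250 bp class has 16.6 midpoints per Mb outside genes and 8.78 inside, against 31.6 and 16.5 at 2001 to 5000 bp.

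The ends of 299 coding genes lay within 500 bp of a midpoint, which is 2.15% of the 13922 coding genes on the 6 arms. A single gene was met by 181 intervals, and 59 met the ends of more than 1 gene (57 with 2 genes, 2 with 3). The intervals at more than 1 gene were 24.6% of the gene-end intervals, while 32.2% of the bases within 500 bp of an end lay in the windows of at least 2 genes. Among the 57 pairs, 51 were neighbours separated by a gap, and the gap had a median of 297 bp (lowest 20 bp, highest 822 bp). The interval reached from one gene to the other in 43 of these. Another 4 pairs shared an end coordinate (CG31875 with SoYb, CG6424 with CG46315, CG45092 with chk, and Spec2 with Dph4), veil lay within CG43110, and CG9837 and aqz overlapped.

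The pairs with the highest scores after CG4882 and PHDP were KLHL18 and GCC185 (4.94), CG16989 and Rbf (4.80), CG5498 and fbl (4.60), CG31875 and SoYb (4.25), and Vamp7 and Sting (4.08). GCC185 encodes a golgin, fbl a pantothenate kinase and Sting an innate immune sensor of cyclic dinucleotides. They were followed by CG5731 and CG5727 (3.87), RpL4 and mino (3.87), Rim2 and Eno (3.59), and SAK and Cdk12 (3.59). RpL4 encodes a ribosomal protein, Eno a glycolytic enzyme and SAK a centriole kinase. Intervals at more than 1 gene had a median width of 1076 bp (961 to 1251 bp), against 1378 bp (1168 to 1551 bp) for those at a single gene. Their median scores were 2.77 at more than 1 gene and 2.72 at a single gene. The 2 intervals with ends of 3 genes were those at CG43954, Lasp and Dab (score 3.69) and at CG42239, UQCR-6.4 and Rab4 (3.53). With such short gaps, an interval cannot be given to one of the neighbours.

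Genes with an interval at an end had a median length of 3915 bp (3145 to 4694 bp), against 2163 bp for all coding genes. The share of genes with such an interval was 1.01% among genes up to 1178 bp, 1.92% from 1179 to 2163 bp, 2.01% from 2164 to 4999 bp, and 3.65% from 5000 bp upwards. Among genes of 20 kb or more it was 4.64% (47 of 1012, Wilson 95% interval 3.51% to 6.12%). Each gene has 2 ends whatever its length, so the window does not grow with the gene, except that the windows of the shortest genes overlap. What else differs between short and long genes was not tested. Symbols that consist of a CG number, which mark genes without a given name, made up 35.1% of the 299 genes (29.9% to 40.7%) and 43.8% of all coding genes.

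Chromosome 4, the small dot chromosome that is rich in heterochromatin, had the highest share of gene-end intervals. There 8 of 21 intervals (38.1%, Wilson 95% interval 20.8% to 59.1%) lay at gene ends, although only 11.4% of its bases are within 500 bp of an end. On each of the other 5 arms the share of intervals was below the share of bases: 12.4% against 16.2% on 2L, 9.46% against 15.9% on 2R, 10.5% against 14.2% on 3L, 8.25% against 15.3% on 3R and 8.74% against 14.1% on X. The 8 intervals of chromosome 4 met 9 of its 80 coding genes (11.3%, 6.03% to 20.02%).

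Among the gene-end intervals at these 9 genes, that at zfh2 had the highest score, 4.44. It was followed by 3.59 at dpr7, which encodes an immunoglobulin-domain surface protein, 3.48 at the kinase gene Asator, and 3.43 at onecut, a cut-homeodomain gene. Lower scores were found at mav (2.37), which encodes a ligand of the TGF-beta family, at Sox102F (2.23), at pan (2.12), which encodes the TCF factor of the Wnt pathway, and between Taf3 and CG33941 (1.85). The interval at mav also lay at the microRNA gene mir-954. With 21 intervals in all, the share on this chromosome has a wide interval.

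**Figure D3:**
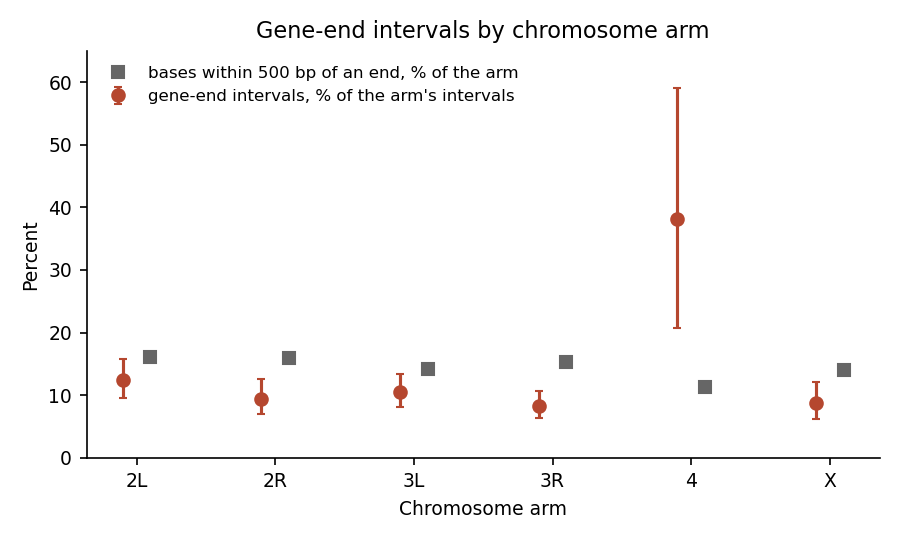
Gene-end intervals as a percent of the intervals of each chromosome arm (circles, bars are Wilson 95% intervals) beside the percent of the arm's bases within 500 bp of a coding gene end (squares). Chromosome 4 stands at 38.1% with 8 of 21 intervals; the other arms lie between 8.25% and 12.4%, each below its square.

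Gene-end intervals were compared with the rest of the list in score, width and false discovery rate. Their median score was 2.745 (95% interval 2.60 to 2.92) against 2.84 (2.79 to 2.89) for all others, with quartiles of 2.23 and 3.51 against 2.32 and 3.63. Scores of gene-end intervals ranged from 1.47 to 6.47. The medians of the other classes were 2.84 in coding gene bodies, 2.82 in other genes and 2.86 between genes, so the 4 medians lay between 2.745 and 2.86. Gene-end intervals made up 8.75% of the intervals with scores of 3.63 or more (52 of 594, Wilson 95% interval 6.74% to 11.3%) and 12.05% of those with 2.31 or less (73 of 606, 9.69% to 14.9%), and these intervals overlap.

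The medians of width lay further apart, but the rule itself bears on width. A wide interval that reaches over an end with its midpoint further away counts among the others. By any overlap 338 intervals met an end, against 240 by midpoint, and the median width by overlap was not worked out. Gene-end intervals had a median width of 1258.5 bp (1124 to 1372 bp), against 1664.5 bp (1612 to 1720 bp) for all others, 1707 bp in coding gene bodies, 1621 bp in other genes and 1618 bp between genes. The median was lower at gene ends on each of the 6 arms. The gap was widest on 3R, with 996 bp (851 to 1454 bp) against 1718.5 bp (1618 to 1831 bp), and narrowest on 2R, with 1360 bp (1078 to 1633 bp) against 1547 bp (1446 to 1681 bp). The median score was lower at gene ends on 3 of the 6 arms, 2L, 3L and 3R. The narrowest gene-end intervals were those at CG4766 (303 bp), at Mlc2 (314 bp), at dgt3 (345 bp), between Rim2 and Eno (347 bp) and, with equal widths of 358 bp, at CG44038 and nab. The widest were at CG18265 (4537 bp), CG14072 (4414 bp), CG43732 (3917 bp), CG33645 (3912 bp) and robo3 (3861 bp).

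Narrow intervals have higher scores in this list, so scores were also compared within 4 classes of width, each with about as many intervals. From 190 to 1014 bp the median score was 3.38 (2.85 to 3.59, 83 intervals) at gene ends and 3.57 (3.51 to 3.67) elsewhere. It was 2.79 (2.56 to 3.08, 78 intervals) at gene ends and 3.08 (2.97 to 3.21) elsewhere from 1015 to 1617 bp. From 1618 to 2419 bp it was 2.34 (2.21 to 2.62, 49 intervals) at gene ends and 2.70 (2.63 to 2.77) elsewhere. From 2420 bp upwards it was 2.55 (2.22 to 2.82, 30 intervals) at gene ends and 2.41 (2.33 to 2.46) elsewhere. The median was lower at gene ends in 3 of the 4 classes, and the intervals of the 2 medians were separate in 1 of them, from 1618 to 2419 bp. The Spearman correlation of score with width was -0.32 over the 240 gene-end intervals and -0.46 over the 2154 others.

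**Figure D4:**
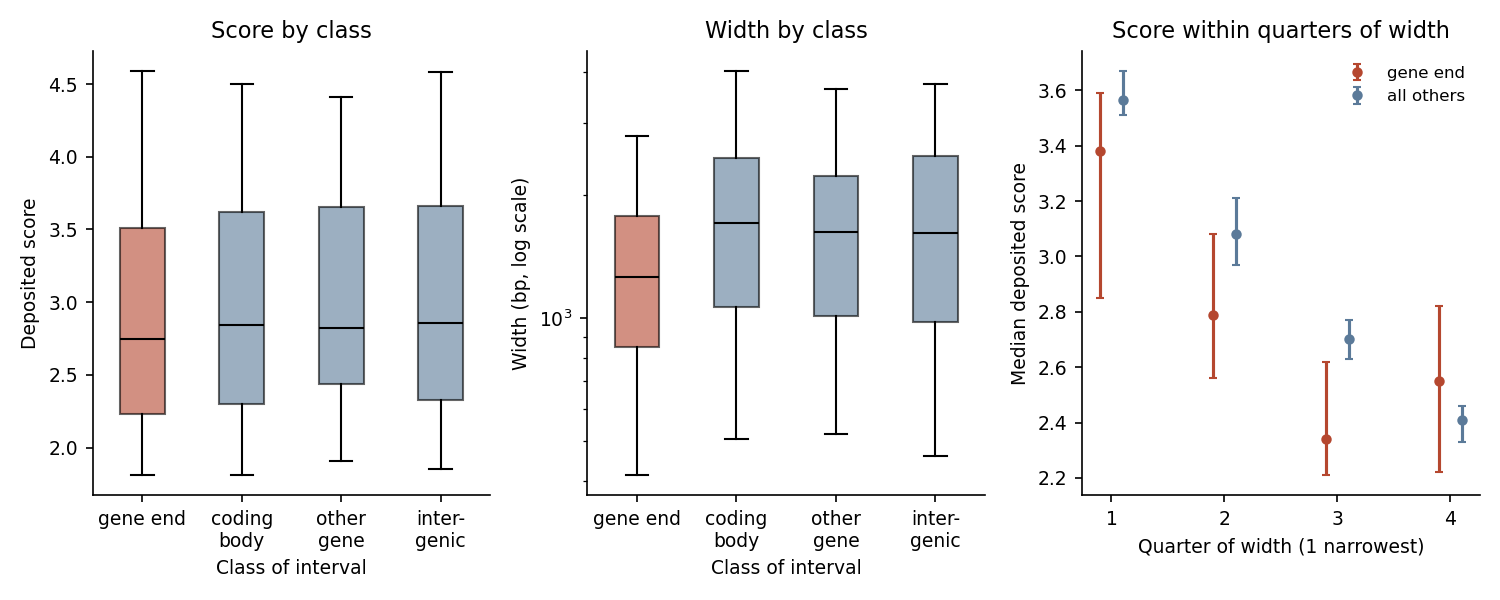
Deposited score (left) and width in bp on a log axis (centre) of the 240 gene-end intervals and the 3 other classes, with boxes for the quartiles and whiskers for the 5th and 95th percentiles; the right panel gives the median score within 4 classes of width with its 95% interval. Gene-end intervals, classed by midpoint, have the lowest median width, 1258.5 bp, and the lower median score in the 3 narrower classes of width.

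The authors' false discovery rate had a median of 0.00123 at gene ends and 0.000177 elsewhere. It was under 0.001 for 104 gene-end intervals (43.3%, Wilson 95% interval 37.2% to 49.7%) and for 63.6% of the others (61.6% to 65.7%). The lowest values at gene ends were 4.57e-27 at Nrt, 1.2e-17 at robo3, 7e-16 at bma, 7.14e-15 at CG9483 and 2.46e-12 at zfh2. Each of these values was also that of another interval nearby that was not at a gene end. The values at Nrt and zfh2 also recurred on another arm, 2L. The list holds only 140 distinct false discovery rates, so a low rate does not belong to the gene-end interval alone. Whether the difference from the other intervals goes with this sharing, with width or with spacing was not tested. Nrt encodes neurotactin, a cell adhesion protein of neurons. Its interval lay on 3L at 16764327 to 16767116, was 2790 bp wide and had a score of 3.99. Gene-end intervals also stood more alone. Another interval lay within 10 kb of the midpoint, midpoint to midpoint, for 33.3% (27.7% to 39.5%) of them and for 47.03% (44.9% to 49.1%) of the others, and the median distance to the nearest was 19109 bp against 11056 bp.

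The genes at the intervals were grouped by 14 lists, all chosen with earlier results of these data known. Of the genes in these lists, 31 had a gene-end interval, with scores from 1.74 to 5.24 and a median of 2.92. Against the 2.15% of all coding genes, the share was higher in 10 lists. The Wilson interval lay above 2.15% for the homeodomain, other transcription factor, Notch, cell cycle and axon guidance lists. For the Notch list this held only with edl, whose place in that list is doubtful. Without edl the lower limit was 2.14%. The share of genes with a gene-end interval depends on gene length, however, and the lists differ in length. The axon guidance genes had a median length of 40368 bp, and their interval held the 4.64% of genes of 20 kb or more. The homeodomain and other transcription factor genes had medians of 15347 and 15112 bp. Genes of at least 10 kb but under 20 kb had a share of 3.42% (2.45% to 4.77%), which the interval of the other transcription factors held. That of the homeodomain genes began at 4.25%, above 3.42% but below its upper limit of 4.77%, and it held the 4.64% of the longest genes. The homeodomain genes zfh2 and onecut lie on chromosome 4, where 11.25% of coding genes had a gene-end interval. A median length is only a rough match, and no list was matched gene by gene. The Notch and cell cycle genes had medians of 4577 and 3975 bp, and their intervals lay above the 2.01% (1.60% to 2.54%) of genes from 2164 to 4999 bp, with 3 genes in each list. Among those 3 cell cycle genes is Rbf, whose interval lay wholly inside CG16989 and cannot be given to either gene. In other lists, PHDP, dpr3 and RpL4 likewise shared their interval with a neighbouring gene but were counted. No share without these genes was worked out. Intervals anywhere in the body or within 1 kb of it were present at 1512 of the 13922 coding genes (10.9%).

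Homeodomain factors had 7 of 81 genes (8.64%, Wilson 95% interval 4.25% to 16.8%) with an interval at an end. Beside PHDP (5.24), zfh2 (4.44) and onecut (3.43) these were ftz (3.51), scro (2.95), Antp (2.45) and Awh (2.22). The pair-rule gene ftz and the Hox gene Antp both belong to the Antennapedia complex on 3R. The interval at scro, an NK2-type factor, was 1 of 6 at that gene. Its midpoint was 111 bp outside the lower end with a score of 2.95, whereas the highest of the 6, inside the gene, had 5.50. Of the other neuronal transcription factors, 5 of 71 (7.04%, 3.05% to 15.4%) had an interval: slp1 (4.36), a forkhead factor of the temporal series in optic lobe neuroblasts, ato (2.81), mamo (2.56), Sox102F (2.23) and sna (1.89).

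In the list for the T4/T5 lineage, 2 of 26 genes (7.69%, 2.14% to 24.1%) had an interval at an end, ato and Sox102F. Anywhere in the body or within 1 kb of it, 19 of 26 had one (73.1%, against 10.9% of all coding genes). The listed genes had a median length of 23075.5 bp, against 2163 bp for all coding genes. The share of 73.1% was not matched for length. The proneural gene ato is active in the progenitors of these neurons. Its gene-end interval was 470 bp wide, on 3R at 8279509 to 8279978, with the midpoint 469 bp beyond the higher end. At Sox102F, which acts in the maturation of T4/T5 neurons, the gene-end interval (score 2.23) had a lower score than the one in the body (3.59).

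Of the 27 genes listed for the Notch pathway, 3 (11.1%, 3.85% to 28.1%) had an interval at an end. They were E(spl)mgamma-HLH (2.59), a bHLH repressor and Notch target, fng (1.89), a glycosyltransferase that modifies Notch, and edl (3.03). The product of edl regulates Ets factors, so its place in a Notch list is doubtful, and without it the share was 2 of 26 (7.69%, 2.14% to 24.1%), with a lower limit below 2.15%. The Bearded family genes Brd (3.85) and E(spl)m4-BFM (2.50), whose products restrain Neuralized and so Notch signalling, also had one but were not on the list and were noticed after their values were seen. In the Dpp/BMP list, 2 of 28 genes (7.14%, 1.98% to 22.6%) had one, mav and the protease gene tok (2.32). Cell cycle and division genes had 3 of 27 (11.1%, 3.85% to 28.1%): Rbf, CycB3 (3.73) and mira (2.95), which encodes an adaptor for asymmetric neuroblast division. None of the 19 Wnt ligands and receptors and none of the 21 ecdysone response factors had an interval at an end. The upper Wilson limits were 16.8% and 15.5%, so these counts do not differ visibly from the 2.15% of all coding genes. In the body or within 1 kb, 7 (36.8%) and 11 (52.4%) of them had an interval, against 10.9% of all coding genes. Their median lengths were 14278 and 50703 bp, against 2163 bp for all coding genes, and these shares were not matched for length.

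The remaining lists hold effector genes of neurons and ribosomal protein genes. Of 45 axon guidance genes, 3 (6.67%, 2.29% to 17.9%) had a gene-end interval. At robo3, a receptor for Slit, it covered the lower end from 1254528 to 1258388 on 2L, with a score of 3.43. The others were Fas3 (2.48), an adhesion protein, and NetB (1.74), a Netrin. Among 54 genes of the families named dpr, DIP, beat and side, 3 (5.56%, 1.91% to 15.1%) had one: dpr7, side (2.31) and dpr3 (2.07). Of 57 channels and transmitter receptors, 3 (5.26%, 1.81% to 14.4%) had one, all of them amine receptors: Octbeta1R (3.19), 5-HT7 (2.92) and Dop2R (1.90). None of 44 synaptic vesicle and active zone genes had one, with an upper Wilson limit of 8.03%, above the 2.15% of all coding genes. In the body or within 1 kb, 15 (34.1%) had an interval, against 10.9% of all coding genes. The listed synaptic genes had a median length of 21479 bp, and this share was not matched for length either. Of 24 RNA-binding protein genes 1 had a gene-end interval, elav, the marker of all neurons, with a score of 3.78 and the midpoint 465 bp beyond its higher end. Among 92 ribosomal protein genes 1 had one, RpL4 (1.09%, 0.192% to 5.90%). That interval did not reach RpL4 and had its midpoint 58 bp inside the neighbouring gene mino.

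**Figure D5:**
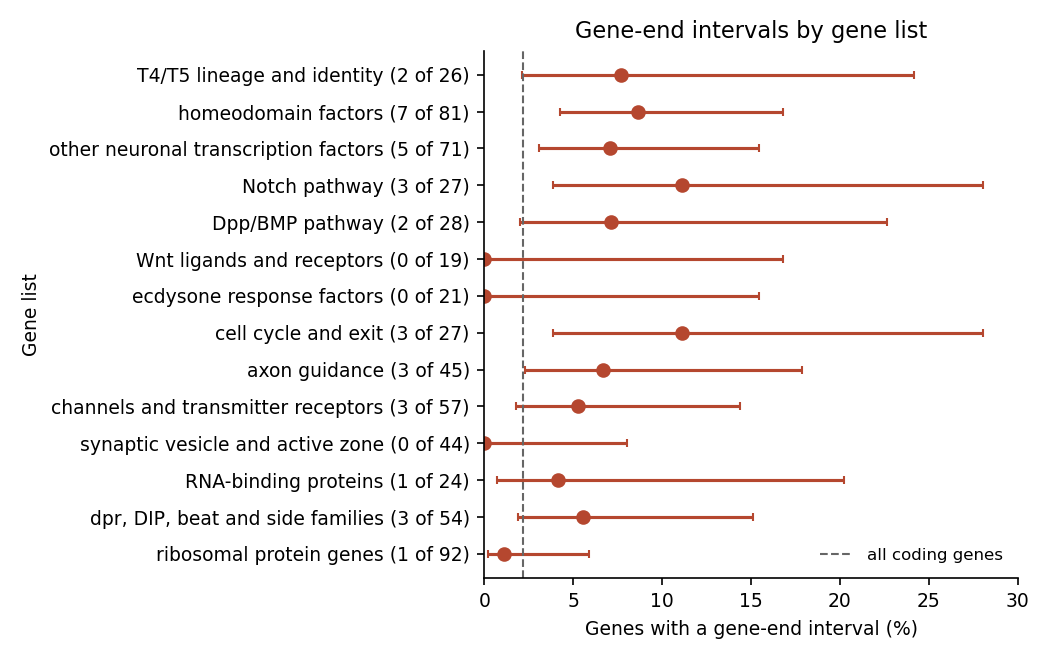
Percent of the genes of each list with a gene-end interval (x axis; circles, with Wilson 95% intervals) beside the share of all 13922 coding genes (dashed line, 2.15%), with counts in the labels. The point lies to the right of the line for 10 of the 14 lists and at 0 for the Wnt, ecdysone and synaptic lists.

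Runs of 3 or more gene-end intervals with midpoints at most 20 kb apart occurred at 3 places. On 2R, the intervals at HmgD (1.77) and HmgZ (3.25), both genes for HMG-box proteins, and at CG30403 (3.72) lay within 12.3 kb. On 2L, the intervals at CG31709 (6.47), CG3841 (2.00) and the glial determination gene gcm2 (3.25) lay within 31.2 kb. On 3L, those at CG3386 (4.30), ebd1 (2.83), and between CG32483 and RabX6 (2.91) lay within 9.03 kb. An interval at both ends was found for 2 genes, Bacc on 2L (3.34 at the lower and 3.75 at the higher end) and CG9837 on 3R (2.56 and 1.82). In 4 cases the gene was so short that 1 interval had both ends in its window: CG44038, CG42239, CG43288 and CG33500.

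Most of the 299 genes had no other interval. A second one in the gene body or within 1 kb was present at 51 genes (17.1%, Wilson 95% interval 13.2% to 21.7%). Of all coding genes, 10.9% had any interval there. The 299 genes were longer, with a median of 3915 bp against 2163 bp, and these shares were not matched for length. Among the 299 genes, 16 had 3 or more intervals in all. At 14 of these 16 the gene's own end interval did not have the highest score. Each of these genes has several intervals, so the highest would often lie away from the end without any difference in score. No expected count was worked out. At pan, the gene-end interval scored 2.12 and those in the body 3.13, 3.74 and 4.61. At mamo, a zinc-finger gene, the end had 2.56 and the body 2.24, 3.09 and 3.35. At ssp3 the end had 2.93 and the body 3.72, 3.76 and 5.28. The other 2 genes were zfh2, with 4.44 at the end and 2.46 and 2.66 in the body, and 5-HT7, with 2.92 at the end and 2.09, 2.11 and 2.41 at the others.

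Ends of non-coding genes were near 16 of the gene-end intervals (6.67%, 4.14% to 10.6%) and near 129 of the others (5.99%, 5.06% to 7.07%). Most were long non-coding RNA genes, at 13 gene-end intervals. One of them was roX2, an RNA of the dosage compensation complex on X. Its interval, with a score of 1.84, also lay 439 bp from the lower end of nod. No tRNA, snRNA or snoRNA gene end was near a gene-end interval. Such ends were near 5, 3 and 2 of the 2154 others (0.232%, 0.139% and 0.0929%). With shares this low, their absence among 240 does not set the gene-end intervals apart.

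The limit of 500 bp cuts through a continuous distribution. The 3 intervals just inside it were at CG8034 (499 bp, score 4.29), CG18213 (496 bp, 1.82) and bma (495 bp, 2.93). The 3 just outside were at tll (505 bp, 2.33), CG1888 (507 bp, 2.25) and N (519 bp, 2.46). The last 3 therefore count among the other intervals, although tll and the Notch receptor gene N are in the T4/T5 list.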

How the data were processed

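The authors deposited 1 interval list for the whole series, without a header. Per the file's own columns it gives arm, start, end, a deposited score and, written as text, a deposited false discovery rate (other values are placeholders). The scale of the score, the peak caller, the aligner and the treatment of replicates are not given in the sources used here. The submitters' processing notes name the build BDGP6. No read depth accompanies the list.

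Starts were raised by 1 from the BED convention. Midpoints were compared with both ends of 13922 coding genes of a Release 6 RefSeq table (exons, introns and UTRs not used). Classes were assigned in the order gene end, coding gene body, other gene, intergenic. Shares carry Wilson 95% intervals, medians order-statistic 95% intervals, and densities exact binomial ones. No test was made: no value belongs to a sample. The members and gene lists were chosen with earlier results of these data known. Symbols and synonyms matched the lists except for 7 entries.

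Named genes were those at the 15 highest and 5 lowest scores, the 5 widest, 5 narrowest and 5 lowest false discovery rates, list genes, genes with 2 gene-end intervals, the 10 highest-scoring intervals at 2 genes, and 3 on each side of the limit. Other genes were named after their values were seen: those with ends shared by a pair or by 3 genes, in runs, on chromosome 4, with 3 or more intervals or with both ends in 1 interval, and Brd, E(spl)m4-BFM, nod and roX2. The planned promoter share and promoter motifs, and the pairs of gene starts, need strand or sequence: the first were not run, and gene ends replaced starts. Assignment was tested on simulated data with planted intervals. Computations ran in Python 3.11.15 (scipy 1.17.1, pandas 2.3.3, numpy 2.4.6).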

Additional observations from a re-analysis of the deposited data

How the results depend on the processing

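The window decides the size of the group. With 250 bp in place of 500 bp there were 129 gene-end intervals (5.39% of all) at 151 genes, and with 1000 bp 408 (17.04%) at 553 genes. The 1203 intervals at or above the median score of the list held 112, at 142 genes, with a median width of 1074.5 bp; the list itself is shorter there. The median score was 2.925 with the window of 1000 bp, just beyond the upper limit of 2.92. The other 27 of 37 alternative values stayed within the 95% interval, or for counts within 1.5 times: 338 intervals by any overlap with an end, 231 after joining intervals within 1 kb, and the shares and medians without each arm in turn. Without chromosome 4 the share was 9.78%. The Notch list without edl, an alternative chosen after seeing the data, had a share of 7.69% in place of 11.1%. No paired analysis was possible because the list holds no value per sample. The share at promoter ends was not run, since it needs strand. Without depth or replicates, no result says how far intervals would vary between samples.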
